A study of Mus musculus with 104 samples.

Results

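Potassium channel genes were followed in whole mouse lung after inhalation of phosgene, an acylating gas that floods the lung with fluid, from the earliest to the latest time sampled. The genes were all those whose annotated symbol starts with Kcn. They had 90 probe sets, and 1 probe set per gene was chosen by its highest mean over all chips, which gave 62 of the 12393 genes measured. The values were array intensities in 52 numbered lungs on 104 chips, 2 chips per lung. Phosgene lungs (labelled CG, at 32 mg) were sampled at 0.5, 1, 4, 8, 12, 24, 48 and 72 after exposure with 3 lungs at each time. Air lungs numbered 3 at each of the same times except 48, which had 4, and 3 lungs were untreated. The times carry no unit in the labels and are taken as hours from knowledge of the study. The sources used here give no strain, sex or age of the mice, and the labels do not say that a numbered lung is 1 animal, so a p describes the spread between lungs, which may be technical.

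Potassium channels let potassium leave or enter cells along its gradient and so set the resting voltage of the membrane. Pore subunits fall into the two-pore family (Kcnk), whose members carry background current, the inward rectifiers (Kcnj), the voltage-gated families (Kcna, Kcnc, Kcnd, Kcnh, Kcnq, Kcns), and the calcium-activated families (Kcnma, Kcnn). Accessory subunits (Kcne, Kcnab, Kcnip, Kcnmb) bind to pores and change their gating or number at the surface. In lung these channels are known for holding the tone of pulmonary artery muscle, driving salt and fluid transport in epithelium, and supporting calcium entry in immune cells.

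Most of the 62 probe sets were dim. Mean intensity over the 52 lungs ran from 2.65 to 131.6 with a median of 36.0 array units, against a median of 98.8 over all genes. Of the 62 genes 42 (67.7%) averaged under 50, against 31.0% of all genes. The files hold no detection calls, so a gene was called dim where its highest group mean was under 50, and 32 genes were dim by this rule. Kcna7, with a highest group mean of 48.8, fell just inside it, and Kcnd1, with 50.1, just outside. Brightness also depends on the probe, so the order of genes is one of probe sets and not of RNA amounts.

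The dim genes were spread over the families. All of Kcns (2 of 2) and Kcnu (1 of 1) were dim, as were 9 of 13 inward rectifier genes, 3 of 4 Kcnn genes, 3 of 5 Kcne genes and 3 of 7 Kcna genes. The two-pore family had 2 dim genes of 8, and the Kcnmb accessory family none of 3. The 10 genes of highest mean were Kcnk1, Kcnk2, Kcnmb2, Kcnq1, Kcnj3, Kcne4, Kcne2, Kcnmb1, Kcnh1 and Kcnj15, with means of 72.6 to 131.6. The SD between the 2 chips of a lung exceeded the SD between lungs of a group for 50 of the 62 genes (medians 0.30 and 0.24 on the log2 scale). The first is of single chips and the second of means of 2 chips, which also carry chip noise. The 2 are therefore unlike measures and do not rank the sources of spread. Tests below used lung means on the scale of log2(intensity + 16), which understates the change of dim genes.

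**Figure D1:**
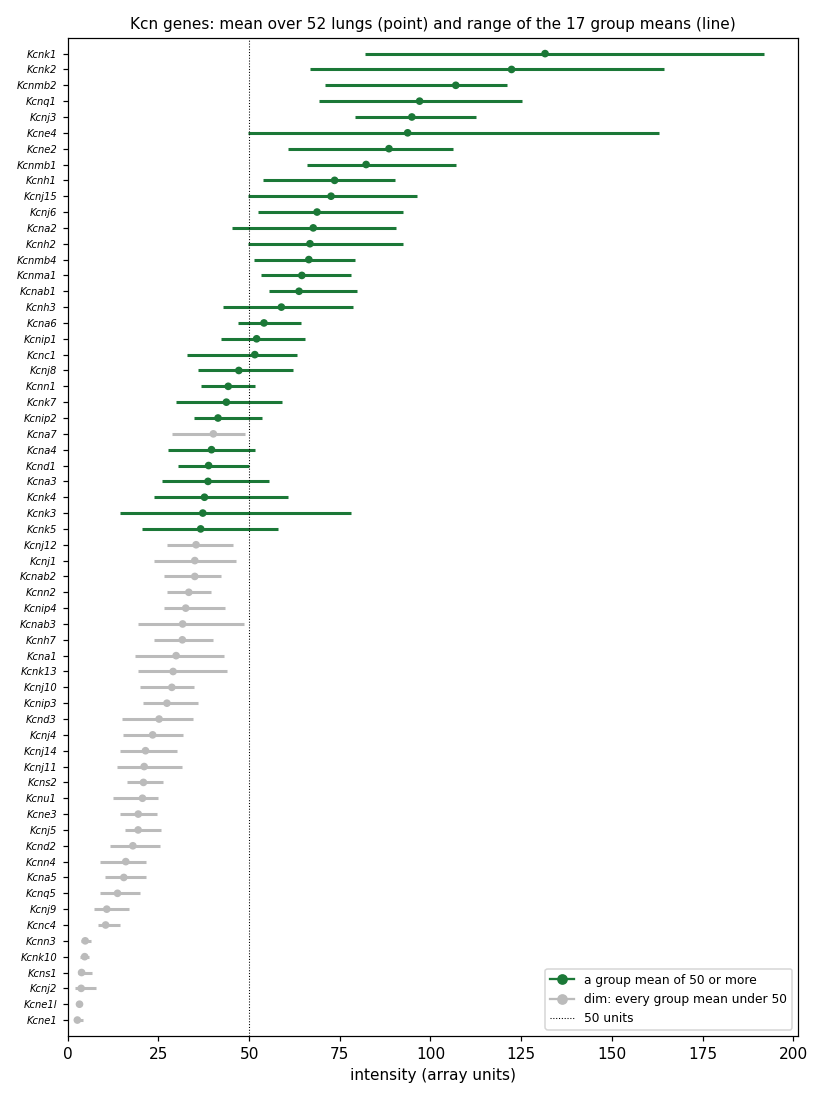
Probe set brightness of the 62 potassium channel genes: the point is the mean intensity over 52 lungs in array units, the line spans the lowest to the highest of the 17 group means, and the dotted line marks 50 units. The 32 dim genes (grey) have every group mean under 50, and Kcnk3, Kcne4, Kcnk1 and Kcnk2 have long lines, which run for Kcnk3 from 14.5 to 78.1.

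Few potassium channel genes passed the test at any single time. Calls required an adjusted p under 0.05, by limma with Benjamini-Hochberg adjustment over the 12393 genes of a comparison. Phosgene minus air gave 0 of 62 called at 0.5 h (0.290% of all genes called), 1 at 1 h (0.839%), 3 at 4 h (5.51%), 7 at 8 h (8.75%), 0 at 12 h (1.83%), 0 at 24 h (1.98%), 1 at 48 h (5.44%) and 1 at 72 h (4.04%). The share of the 62 genes was above that of all genes at 1 h (1.61%) and 8 h (11.3%) and below it at the other 6 times, and these differences were not tested. At 0.5, 12 and 24 h, where limma called 0, an unadjusted p under 0.05 was reached by 3, 10 and 5 genes. Taken over the 8 times, 9 genes made 13 calls in 496 tests of 1 gene at 1 time. Of the 13 calls 1, Kcne4 at 8 h, held whichever lung of its comparison was left out. It was lost when only the lungs of its comparison were fitted (adjusted p = 0.0999 by limma). In what follows lungs of a group are numbered in the order in which their values stand. The 5 air lungs whose numbers lie next to those of the untreated lungs (1 at 8 h, 2 at 48 h and 2 at 72 h) were also left out together.

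Most of the 62 genes lay slightly lower in phosgene lungs at 4 and 8 h, as did the median of the array. At 4 h 48 genes had a negative log2 change and 14 a positive one, with a median log2 change of -0.16, against -0.08 over all genes. At 8 h the medians were -0.14 and -0.07. At 72 h the median was 0.03, against 0.01 over all genes.

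Averaged over the 8 times, 10 of 62 genes were called (16.1%, against 26.1% of all genes). The 3 genes that rose (9.61% of all genes rose) were Kcne4, Kcnj15 and Kcnk1. The 7 that fell (16.5% of all genes fell) were Kcnk3, Kcna3, Kcnq1, Kcnc1, Kcnab3, Kcne2 and Kcnh2. Of the 32 dim genes 1 was called at a single time, Kcnd2 at 8 h, and 1 in the average, Kcnab3. In bulk tissue a lower value can come from fewer cells that make a transcript or from less of it per cell, and the 2 cannot be told apart here.

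**Figure D2:**
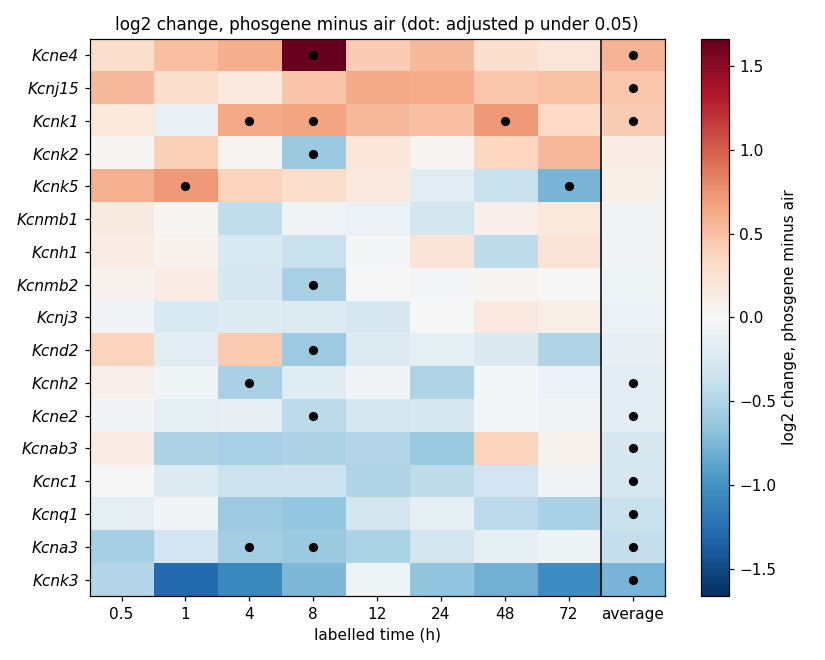
Log2 change, phosgene minus air, of 17 potassium channel genes at 8 labelled times in hours and averaged over them, with red for higher and blue for lower in phosgene lungs and a dot where the adjusted p is under 0.05. Kcnk1 has 3 single-time dots, Kcne4 its darkest cell at 8 h (1.66), Kcnk3 is blue in all columns, and Kcnk5 turns from red at 1 h (0.72) to blue at 72 h (-0.78).

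Among the two-pore channels, Kcnk3 was lower in phosgene lungs. Kcnk3 encodes an acid-sensitive background channel known for setting the resting voltage of pulmonary artery smooth muscle, and loss-of-function variants of the human gene are a known cause of pulmonary hypertension. Its intensity in the 24 phosgene lungs was 7.75 at the lowest, 12.8 at the median and 63.8 at the highest, against 13.1, 50.4 and 106.0 in the 25 air lungs. Of the phosgene lungs 22 lay below the air median and 12 below the lowest air lung. The 3 untreated lungs had 45.0, 63.5 and 47.1.

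The phosgene mean of Kcnk3 was below the air mean at 8 of 8 times. At 1 h the phosgene lungs had 8.45, 12.0 and 23.1, against 77.2, 53.7 and 50.4 in air lungs. At 4 h they had 11.9, 26.6 and 53.0, against 106.0, 55.2 and 73.1. At both times all phosgene lungs lay below all air lungs, and at the other 6 the groups overlapped. At 12 h the lung values covered a similar range, with 63.8, 36.7 and 9.95 in phosgene lungs and 59.8, 33.9 and 17.5 in air lungs.

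Averaged over the 8 times, the log2 change of Kcnk3 was -0.77 (SE 0.15, adjusted p = 0.000109 by limma), a 1.7-fold difference on the scale with 16 added. Kcnk3 had been singled out with earlier results of these data known, so this p is no independent support. No single time passed, with adjusted p = 0.211 at 1 h (log2 change -1.29, SE 0.42) and 0.136 at 4 h (-1.07, SE 0.42). The change at 4 h did pass with hybridization day as a term (-1.45, adjusted p = 0.0147) and with the mean of all probe sets of the gene (-0.76, adjusted p = 0.013). It stayed uncalled in 8 of 10 settings, and without any 1 of the 6 lungs (adjusted p = 0.0727 to 0.388 by limma). With day as a term the average was -0.94. Over 8 settings the average lay between -1.07 and -0.38 and was called in each. Within the 2 days that held both groups at 4 h the change was -2.59 and -0.84, and within the 4 such days at 1 h it lay between -2.07 and 0.09 and was negative in 3. At 12 h it was -1.44 and -0.98 within 2 such days, unlike the similar range of the lung values. Within-day values compare chips, and with 3 lungs per group 4 days must share lungs, so days are not replicates.

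A second probe set of Kcnk3, with a mean of 10.5, also fell on average (-0.34, adjusted p = 0.0163) and at 4 h (-1.01, adjusted p = 0.0499), while another, with a mean of 7.35, gave -0.03 (adjusted p = 0.624). Here and below, the p of other probe sets comes from a separate limma fit, adjusted over 20380 probe sets and not over genes. Markers of tissues known to use Kcnk3 moved in both directions. Of 7 heart muscle markers 4 fell on average and 0 rose, with summed intensity between 1847 and 5584 in phosgene lungs and 2702 and 5460 in air lungs. Of these markers 4 fell at 48 h and 4 at 72 h. At 1 and 4 h, where the Kcnk3 groups did not overlap, 0 were called. Their mean sums were then 3314.5 and 3637.8 in phosgene lungs, against 3290.4 and 3382.8 in air lungs. Of 6 smooth muscle markers, 1 of them dim, 2 rose and 0 fell, with sums between 2354 and 3644 and between 1964 and 3507. Of 3 pericyte markers 1 fell on average and 0 rose. At 4 h their sums lay between 739.4 and 812.6 in phosgene lungs and 821.9 and 982.15 in air lungs, without overlap, though 0 were called. At 1 h the sums lay between 823.5 and 964.1 and between 787.95 and 880.5. The part of all these markers in the Kcnk3 result was not tested.

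Kcnk5, a background channel of epithelia that opens at alkaline pH, changed sides with time. At 1 h the phosgene lungs had 54.2, 60.5 and 59.4, against 36.9, 17.5 and 39.7 in air lungs, and at 72 h they had 21.4, 20.3 and 19.6, against 44.4, 33.9 and 55.0. All phosgene lungs lay above all air lungs at 0.5, 1 and 8 h and below them at 48 and 72 h. The log2 change was 0.59 at 0.5 h (adjusted p = 0.385), 0.72 at 1 h (0.0343), 0.37 at 4 h, 0.29 at 8 h, 0.16 at 12 h, -0.17 at 24 h, -0.36 at 48 h and -0.78 at 72 h (0.00752), with an SE of 0.17 to 0.18 and p values by limma.

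Of the 62 genes 1, Kcnk5, was called for a change of the phosgene effect with time (F test over the 8 contrasts, adjusted p = 0.000507 by limma, where 3.99% of all genes were called). The call was lost with hybridization day (adjusted p = 0.0589) or chip lot (0.149) as a term. Kcnk5 too was named with earlier results known. The phosgene means over the 8 times were 53.8, 58.0, 37.4, 32.8, 36.4, 34.1, 28.4 and 20.4, and the air means 29.9, 31.4, 28.2, 26.6, 32.0, 40.3, 41.1 and 44.4, and the air lungs alone were not called for a change among times (adjusted p = 0.219). The untreated lungs averaged 46.2, near the early phosgene lungs and the late air lungs.

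Against the untreated lungs Kcnk5 was called only at 72 h (log2 change -0.84, adjusted p = 0.00346, where 3.87% of all genes were called), and at 1 h the change was 0.25 (adjusted p = 0.541). The close lung means at 72 h hide a wide spread between chips. The 2 chips of the phosgene lungs read 8.2 and 34.5, 31.1 and 9.4, and 30.2 and 9.0. One air lung at 1 h read 31.8 and 3.2, and without that lung the change at 1 h was 0.45 (adjusted p = 0.337). The call at 1 h was also lost without any 1 of the phosgene lungs (adjusted p = 0.0876, 0.110 and 0.0978). Without air lung 3 at 72 h the change was -0.64 (adjusted p = 0.0845), and without the 5 air lungs named above, which leaves 1 air lung at 72 h whose spread is taken from the other groups, it was -0.81 (adjusted p = 0.214). Within hybridization days the change was positive in all 4 days at 1 h (at least 0.35) and negative in both days at 72 h (-1.33 and -0.33). The days at 1 h share lungs, so they are not replicates. Both calls were nevertheless lost with hybridization day as a term (adjusted p = 0.191 at 1 h and 0.339 at 72 h), with chip lot as a term (0.202 and 0.468) and on single chips with lung and chip letter as blocks (0.208 and 0.0568). The other probe set of Kcnk5, with a mean of 6.26, gave 0.29 at 1 h (adjusted p = 0.738), -0.20 at 8 h and -0.26 at 72 h (adjusted p = 0.515). With the mean of both probe sets the call at 1 h was lost (adjusted p = 0.0581) and that at 72 h was kept (0.0165).

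**Figure D3:**
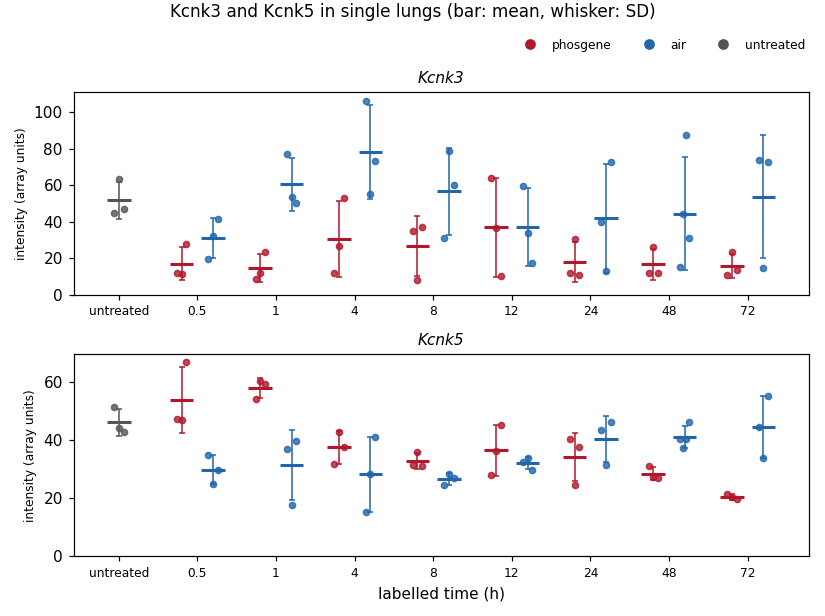
Intensity in array units of Kcnk3 (top) and Kcnk5 (bottom) in untreated lungs and at 8 labelled times in hours, phosgene in red and air in blue, where each point is 1 lung, the bar the mean and the whisker the SD of 3 lungs (4 for air at 48 h). The phosgene mean of Kcnk3 lies below the air mean at all 8 times, and that of Kcnk5 lies above it at 5 times, 0.5 to 12 h, and below it at 3, 24 to 72 h.

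Kcnk1, a weakly inward-rectifying member of the two-pore family, rose. It was called at 4, 8 and 48 h and in the average (log2 change 0.43, SE 0.06, adjusted p = 1.04e-06 by limma). Over the 24 phosgene lungs its intensity was 105.1 at the lowest, 153.1 at the median and 218.7 at the highest, against 69.3, 111.6 and 163.9 in the 25 air lungs. Of the phosgene lungs 23 lay above the air median, and the phosgene mean was higher at 7 of 8 times, the exception being 1 h.

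At 4 h the phosgene lungs had 112.9, 139.1 and 155.5 units of Kcnk1, against 69.3, 89.8 and 86.5 in air lungs (log2 change 0.63, adjusted p = 0.0264). At 48 h they had 218.7, 157.7 and 199.2, against 125.3, 124.8, 105.0 and 86.8 (0.72, adjusted p = 0.0048). The groups did not overlap at either time. At 8 h the change was 0.65 (adjusted p = 0.0153), but within the 2 hybridization days that held both groups it was -0.09 and 0.20. Within days at 48 h it lay between 0.55 and 0.72. A dimmer probe set of Kcnk1, with a mean of 41.3, also rose on average (0.26, adjusted p = 0.013) and passed at none of the 3 times. The call at 4 h was lost without air lung 1 or 2 or phosgene lung 2 or 3, that at 8 h without air lung 2 or phosgene lung 1 or 2, and that at 48 h without phosgene lung 1 (adjusted p = 0.0559) or without the 5 air lungs (0.55, adjusted p = 0.0916).

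Kcnk2, a two-pore channel opened by stretch and by polyunsaturated fatty acids, fell at 8 h and was called at no other time. The phosgene lungs at 8 h had 74.0, 71.1 and 55.3, against 99.3, 110.9 and 122.9 in air lungs, with no overlap (log2 change -0.61, SE 0.18, adjusted p = 0.0245 by limma). Against untreated lungs the change at 8 h was -0.88 (adjusted p = 0.00072, where 10.8% of all genes were called), and within days it was -1.21 and -0.67. At 7 of 8 times the phosgene mean was the higher one, and the average was 0.12 (adjusted p = 0.15). Its change with time had an adjusted p of 0.0591. The call at 8 h was lost without air lung 2 or 3, phosgene lung 3 or the 5 air lungs (highest adjusted p with 1 lung left out 0.0997). Centring chips on their medians, quantile normalization and a fit of only the lungs of the comparison also lost it.

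Of the 13 inward rectifier genes 0 were called at a single time and 1, Kcnj15, in the average. Kcnj15 encodes a pore subunit found in epithelia such as kidney and stomach. Its intensity was 35.0 at the lowest, 88.1 at the median and 117.5 at the highest in phosgene lungs, against 31.7, 52.4 and 111.4 in air lungs, and 23 of 24 phosgene lungs lay above the air median. The 3 untreated lungs had 97.85, 40.7 and 50.9. The phosgene mean was higher at 8 of 8 times, and the averaged log2 change was 0.46 (SE 0.09, adjusted p = 0.000218 by limma). Within the 2 hybridization days that held both groups at 4 h, however, the change was -0.41 and -0.03. All phosgene lungs lay above all air lungs at 3 times. At 12 h, 1 of them, they had 88.9, 105.4 and 93.7, against 46.2, 47.6 and 80.2 in air lungs. Kcnj3, a rectifier gated by G proteins, was among the 10 brightest genes and gave an averaged change of -0.09 (adjusted p = 0.349).

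Among the accessory subunits, Kcne4 rose. Its product is known to lower the current of several voltage-gated channels, Kcnq1 and Kcna3 among them. Over the phosgene lungs its intensity was 67.0 at the lowest, 102.4 at the median and 216.3 at the highest, against 11.4, 79.2 and 120.1 in air lungs. The phosgene mean was higher at 8 of 8 times, and the averaged log2 change was 0.56 (SE 0.10, adjusted p = 3.48e-05 by limma).

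At 8 h Kcne4 had 216.3, 151.5 and 121.3 units in phosgene lungs, against 11.4, 44.3 and 93.7 in air lungs (log2 change 1.66, SE 0.29, adjusted p = 0.000101). The air lungs differed widely among themselves. The 2 chips of the lowest air lung read 12.9 and 9.9, and those of the next 69.6 and 18.9. Without the lowest air lung the change was 1.16 (adjusted p = 0.00487), and against untreated lungs it was 0.90 (adjusted p = 0.0347). Within the 2 hybridization days that held both groups it was 0.21 and 0.43, and with day as a term 1.33. When only the lungs of this comparison were fitted, the change did not pass (adjusted p = 0.0999 by limma).

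**Figure D4:**
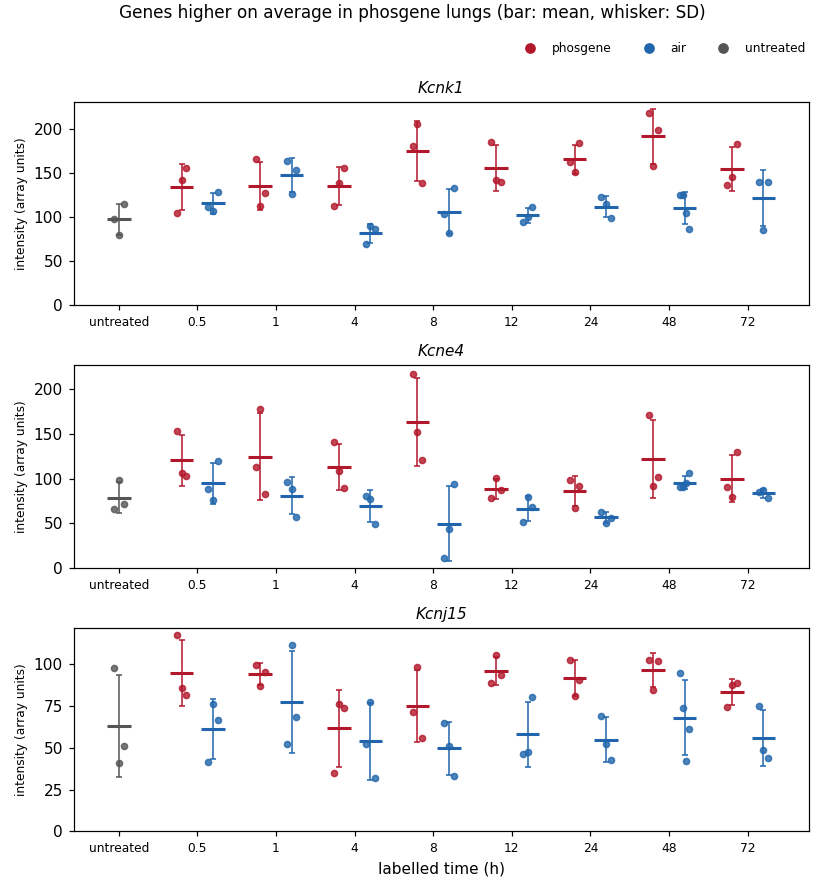
Intensity in array units of the 3 potassium channel genes higher on average in phosgene lungs, in untreated lungs and at 8 labelled times in hours, with points, bars and whiskers for lungs, means and SD. The phosgene mean (red) lies above the air mean (blue) at 8 of 8 times for Kcne4 and Kcnj15 and at 7 of 8 for Kcnk1, and 1 air lung of Kcne4 at 8 h lies at 11.4.

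The sequence before the transcription start is shown for the 3 genes that rose together on average and for Kcnk5, which changed sides. The 250 bases are RefSeq's for build GRCm38.p6, given 5′ to 3′ on the gene's strand. They lie at chr1:78816661-78816910 (plus strand) for Kcne4, at chr16:95257308-95257557 (plus) for Kcnj15, at chr8:125994852-125995101 (plus) for Kcnk1 and at chr14:20181783-20182032 (minus) for Kcnk5, each ending at the annotated start of the gene. Capitals mark matches to 5 motifs sought on both strands: the core of the antioxidant response element, TGACNNNGC, the AP-1 site, TGANTCA, a heat shock element, GAANNTTC, the GC box, GGGCGG, and the TATA box, TATAAA. Kcnk3 and Kcnq1 are named only.
Kcne4: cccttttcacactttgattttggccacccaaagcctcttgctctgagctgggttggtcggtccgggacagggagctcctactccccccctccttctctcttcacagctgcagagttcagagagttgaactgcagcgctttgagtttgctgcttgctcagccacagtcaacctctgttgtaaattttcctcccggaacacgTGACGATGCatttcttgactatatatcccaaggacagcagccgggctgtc
Kcnj15: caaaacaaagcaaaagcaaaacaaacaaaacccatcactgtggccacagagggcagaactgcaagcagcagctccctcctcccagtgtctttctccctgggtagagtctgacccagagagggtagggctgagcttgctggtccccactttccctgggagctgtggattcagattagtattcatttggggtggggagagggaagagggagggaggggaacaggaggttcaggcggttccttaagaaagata
Kcnk1: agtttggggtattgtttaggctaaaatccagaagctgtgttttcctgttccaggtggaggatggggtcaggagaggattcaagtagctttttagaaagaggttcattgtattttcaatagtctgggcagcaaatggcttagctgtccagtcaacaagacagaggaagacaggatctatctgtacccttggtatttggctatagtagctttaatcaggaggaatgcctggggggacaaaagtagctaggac
Kcnk5: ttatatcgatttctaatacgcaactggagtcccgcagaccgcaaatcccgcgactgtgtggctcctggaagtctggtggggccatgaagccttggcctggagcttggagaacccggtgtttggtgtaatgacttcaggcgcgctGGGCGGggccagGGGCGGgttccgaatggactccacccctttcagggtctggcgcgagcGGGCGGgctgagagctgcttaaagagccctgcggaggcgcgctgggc

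The window of Kcne4 held 1 match to the antioxidant core, a motif found in 10.2% of 32851 promoter windows of that length. A window of Kcne2, which fell, also held 1. The window of Kcnk5 held 3 GC boxes, where 32.7% of windows held 1 or more. Among genes that fell, the windows of Kcnh2 and Kcnc1 held 3 each and that of Kcna3 held 2. Those of Kcnj15 and Kcnk1 held none of the 5 motifs.

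Kcne2, an accessory subunit of voltage-gated channels in heart and stomach, was higher in air lungs than in untreated lungs. The 25 air lungs had 73.6 at the lowest, 92.7 at the median and 115.4 at the highest, all above the 3 untreated lungs with 57.5, 61.4 and 63.1. The averaged change, air minus untreated, was 0.55 (SE 0.10, adjusted p = 0.0078 by limma, where 0.242% of all genes were called), and Kcne2 was the only one of the 62 genes called in it. In single comparisons with untreated lungs it was called in air at 0.5, 1, 12 and 72 h (0.347%, 0.178%, 1.52% and 0.153% of all genes called). Air minus untreated rests on 3 untreated lungs and was not refitted under other settings or with lungs left out.

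Phosgene minus air, Kcne2 fell at 8 h (log2 change -0.43, SE 0.14, adjusted p = 0.042) and in the average (-0.18, SE 0.05, adjusted p = 0.00567). At 8 h the phosgene lungs had 52.8, 68.3 and 64.2, against 101.9, 85.3 and 79.7 in air lungs, without overlap. Those phosgene lungs lay at the level of the untreated ones, and against these the change was 0.03. Within days it was -0.54 and 0.00, and the call at 8 h was lost with day or chip lot as a term and without air lung 1 or 2 or phosgene lung 1 or 3. Centring chips on their medians or quantile normalization also lost that call. With hybridization day as a term the average was -0.15 (adjusted p = 0.0647).

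Kcnmb2, an accessory subunit that inactivates the large calcium-activated channel, fell at 8 h. The phosgene lungs had 62.6, 85.0 and 65.5, against 134.0, 120.6 and 83.3 in air lungs, where 1 phosgene lung lay above 1 air lung (log2 change -0.54, SE 0.15, adjusted p = 0.0168 by limma). Its other probe set, with a mean of 72.3, gave -0.11 at 8 h (adjusted p = 0.768) but fell at 4 h (-0.55, adjusted p = 0.0256), when the chosen probe set was not called. The call at 8 h was lost with hybridization day as a term and without air lung 1 or 2 or phosgene lung 1 or 3. Kcnmb1, the accessory subunit of that channel in smooth muscle, averaged 81.2 ± 10.4 in 24 phosgene lungs and 85.2 ± 17.6 in 25 air lungs (SD; log2 change -0.05, adjusted p = 0.514). The dim Kcnab3, an accessory subunit of Kcna channels, averaged 28.0 ± 9.58 and 36.7 ± 14.0 (log2 change -0.26, adjusted p = 0.0348), and its call was lost with day as a term (adjusted p = 0.0792) and without any 1 of 12 of the 49 lungs. Centring chips on their medians also lost it.

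Of the voltage-gated pores, Kcna3 fell. Kcna3 is the main delayed rectifier of T lymphocytes and is also made by macrophages. Its intensity in the phosgene lungs was 20.0 at the lowest, 32.8 at the median and 41.5 at the highest, against 33.0, 43.9 and 69.3 in air lungs, and all 24 phosgene lungs lay below the air median. The averaged log2 change was -0.39 (SE 0.06, adjusted p = 1.70e-06 by limma), and the phosgene mean was lower at 8 of 8 times. The untreated lungs had 27.5, 42.5 and 44.1, a range that reaches both groups.

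Kcna3 was called at 4 h (log2 change -0.58, adjusted p = 0.032) and 8 h (-0.61, adjusted p = 0.0156). At 8 h the phosgene lungs had 22.9, 21.0 and 33.9, against 46.2, 57.2 and 40.4 in air lungs. Within hybridization days the change was -0.26 and -0.11 at 8 h, and -1.87 and 0.33 at 4 h. The call at 8 h was lost without air lung 2 or phosgene lung 1 or 2, and that at 4 h without air lung 2 or 3 or phosgene lung 1. Both were also lost with hybridization day (adjusted p = 0.115 at 8 h and 0.0729 at 4 h) or chip lot (0.0572 and 0.108) as a term. A fit of only the lungs of the comparison lost both too. Centring chips on their medians or quantile normalization lost the call at 4 h. Of 4 T cell markers, 1 of them dim, 1 (Cd3g) fell on average and 0 rose, with sums between 119.3 and 274.2 in phosgene lungs and 120.5 and 552.7 in air lungs. The highest air sum was at 1 h, in a group whose sum of 3 thymus markers reached 501.65, against an air median of 63.05. At 4 and 8 h 0 of the T cell markers were called. Their mean sums were then 211.4 and 227.6 in phosgene lungs, against 206.5 and 188.3 in air lungs. Of 4 macrophage markers 1 rose and 1 fell, with sums between 1005 and 1919 and between 1188 and 1642. Their part in the result was not tested.

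Kcnq1, the pore of a slow delayed rectifier in heart and of epithelial channels that recycle potassium, fell in the average and at no single time. The phosgene lungs had 22.0 at the lowest, 82.0 at the median and 120.7 at the highest, against 80.5, 108.7 and 142.1 in air lungs. The averaged log2 change was -0.36 (SE 0.09, adjusted p = 0.00124 by limma), and the phosgene mean was lower at 8 of 8 times, without overlap at 4 of them. At 48 h the phosgene lungs had 62.6, 69.1 and 76.2, against 109.1, 92.5, 94.2 and 102.5 in air lungs. The lowest value came from 1 phosgene lung at 8 h, whose chips read 27.3 and 16.6, and without it the average was -0.30 (adjusted p = 0.000433).

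**Figure D5:**
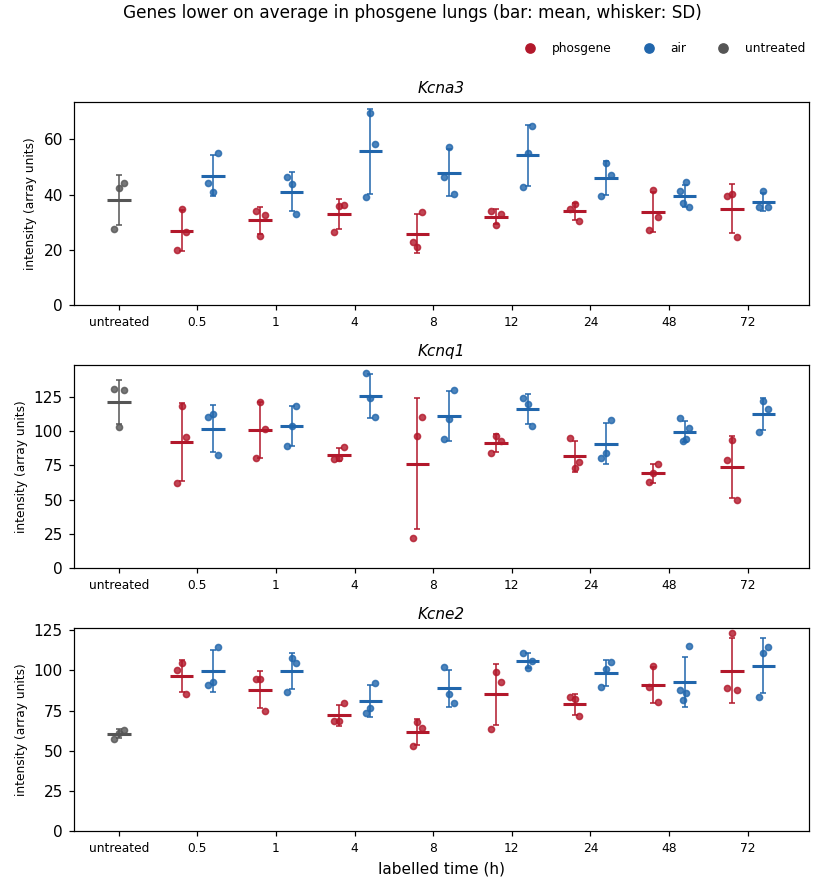
Intensity in array units of Kcna3, Kcnq1 and Kcne2, lower on average in phosgene lungs, in untreated lungs and at 8 labelled times in hours, with points, bars and whiskers for lungs, means and SD. The phosgene mean (red) of all 3 genes lies below the air mean (blue) at 8 of 8 times, and the untreated lungs of Kcne2 (57.5 to 63.1) lie below all air lungs.

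Kcnh2, the rapid delayed rectifier of heart, and Kcnc1, a fast-gating neuronal channel, fell by less. Kcnh2 had 62.6, 53.2 and 61.2 in phosgene lungs at 4 h, against 89.7, 94.6 and 92.8 in air lungs (log2 change -0.53, SE 0.16, adjusted p = 0.0416 by limma), and its average was -0.17 (adjusted p = 0.0198). Within days at 4 h the change was -0.57 and -0.22, and the call at 4 h was lost with day or chip lot as a term and without any 1 of the 6 lungs. Kcnc1 averaged 45.5 ± 16.7 in phosgene lungs and 57.5 ± 9.92 in air lungs (SD; log2 change -0.28, adjusted p = 0.012). With day as a term both averaged calls were lost (adjusted p = 0.0695 for Kcnh2 and 0.236 for Kcnc1). Centring chips on their medians or quantile normalization lost the calls of Kcnh2 at 4 h and in the average.

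The dim Kcnd2, a transient outward channel of neurons and heart, fell at 8 h. The phosgene lungs had 7.3, 13.4 and 14.2, against 23.5, 23.7 and 27.7 in air lungs (log2 change -0.61, SE 0.20, adjusted p = 0.048). Both of its other probe sets, with means of 11.8 and 5.07, gave -0.12 and 0.02 and did not pass. In that fit of single probe sets the chosen one did not pass either (adjusted p = 0.059 by limma). The call was lost with day or chip lot as a term and without any 1 of the 6 lungs. Centring chips on their medians or quantile normalization also lost it. Kcnh1, a voltage-gated pore among the 10 brightest, averaged 71.5 ± 12.8 in phosgene lungs and 74.9 ± 14.0 in air lungs (log2 change -0.06, adjusted p = 0.51).

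At 8 h, the time with the most calls, other cell types also moved. Of 4 neutrophil markers 3 rose and 0 fell, with summed intensity between 1023 and 4144 in phosgene lungs and 484.6 and 650.2 in air lungs. Of 6 endothelial markers 3 fell and 0 rose, with sums between 3999 and 5126 in phosgene lungs and 4678 and 6291 in air lungs. Markers of other cells also fell, 2 of 5 for alveolar type 1 cells, 2 of 3 for club cells, 1 of 2 for ciliated cells and 1 of 4 for macrophages, while 1 of 3 for neurons and neuroendocrine cells rose (2 of these 3 are dim). The club cell sums lay between 11260 and 14451 in phosgene lungs and 16182 and 18355 in air lungs. The macrophage sums lay between 1071 and 1277 in phosgene lungs and 1365 and 1584 in air lungs. Averaged over the 8 times, 6 of 6 endothelial markers fell. The part of these shifts in the calls of potassium channel genes was not tested. The markers of alveolar type 2 cells (4 of 5 on the array, 0 dim) had sums at 8 h between 12197 and 15390 in phosgene lungs and 15879 and 18948 in air lungs, which do not overlap, and 0 of them were called at 8 h or in the average.

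The other 45 genes include most of the inward rectifiers and all of Kcnn, Kcnip and Kcns. Every gene called in a test was among the named ones, so by that choice these 45 passed no test of phosgene against air. Their log2 changes at single times lay between -0.72 and 0.47, and their lowest adjusted p was 0.0511. At 8 h 10 of the 62 genes had all phosgene lungs below all air lungs and 3 had them above (14.5% and 8.20% of all genes). At 24 h the counts were 10 and 7 (11.4% and 7.43%).

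Other genes of potassium handling were given by a list of 24, of which 16 were on the array and 6 of those dim. Averaged over the 8 times 1 rose and 3 fell, against 9.61% and 16.5% of all genes. Atp1b1, a beta subunit of the sodium pump, rose (log2 change 0.34, adjusted p = 2.10e-05 by limma), also at 4 h (0.75) and 8 h (0.52). Its mean at 4 h was 1737 ± 145 in phosgene lungs and 1037 ± 232 in air lungs (SD, n = 3 each). Atp1b3 (-0.26) and Atp1b2 (-0.19), the other beta subunits of the pump, and Slc12a7 (-0.17), a potassium chloride cotransporter, fell. Slc12a7 was also called at 8 h (-0.56, adjusted p = 0.0242 by limma). Its mean was then 152 ± 22 in phosgene lungs and 233 ± 42 in air lungs, without overlap. Slc12a2, the sodium potassium chloride cotransporter of epithelium, gave 0.01 (adjusted p = 0.946).

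In air lungs alone 0 of the 62 genes were called for a change among the 8 times (F test by limma, 0.960% of all genes called), while 12 had an unadjusted p under 0.05. Against untreated lungs, phosgene lungs gave 1 called gene at 0.5 h (1.46% of all genes), 0 at 1 h (3.77%), 0 at 4 h (5.83%), 5 at 8 h (10.8%), 1 at 12 h (3.33%), 1 at 24 h (3.76%), 2 at 48 h (5.41%) and 3 at 72 h (3.87%). The 5 genes at 8 h were Kcne4 and Kcnk1, which rose, and Kcnk2, Kcnmb2 and Kcnq1, which fell. Kcnk1 was called at each time from 8 to 72 h, with log2 changes of 0.75, 0.60, 0.69, 0.87 and 0.59. Both sets of comparisons share the phosgene lungs, so they are not independent of each other.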

How the data were processed

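Messenger RNA of mouse lung was measured on 104 Affymetrix chips of 1 mouse array. The deposited values are linear signal intensities that the authors scaled chip by chip: the mean after trimming 2% at each end was 150.03 to 150.04 on every chip, and chip medians were 68.2 to 90.1. The sources used here do not name the software behind the intensities. Chip settings as deposited (unit other) gave 11 hybridization days and 3 chip lots, and rescans of chips were not used. The number of chips limits the precision.

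Of 22690 probe sets 64 are controls. Gene symbols came from GEO's platform annotation, with 1 symbol for 20380 probe sets, several for 691 and none for 1555. The probe set of highest mean log2 value was kept for each of 12393 genes, and 20 of the 62 Kcn genes had several. Single probe sets were tested in a separate fit, with adjustment over the 20380 probe sets with 1 symbol. All 62 gene IDs matched RefSeq.

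To each intensity 16 was added before log2, the 2 chips of a lung were averaged, and 17 group means were fitted with limma 3.58.1 in R 4.3.3, with variances moderated by a trend on intensity. Contrasts were 2-sided, adjusted by Benjamini-Hochberg over all genes, and called under 0.05. Changes carry the moderated SE. The fit was tested on simulated data with known changes.

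Named genes were Kcnk3, Kcnk5, those called in any test, and the 10 of highest mean. The genes, lists and tests were chosen with earlier results of these data known. Chips of a lung share its number and RNA source, which is where their pairing comes from. Alternatives changed the offset, normalization, filter, probe set, controls, batch terms and lungs. Leaving out the 5 air lungs, single probe sets and within-day values were added after seeing the data.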

Additional observations from a re-analysis of the deposited data

Results flagged for a closer look

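Kcnk5 stood out because its phosgene effect differed between times, by a test of the difference itself (F test over the 8 contrasts, adjusted p = 0.000507 by limma). The log2 change, phosgene minus air, was 0.72 at 1 h and -0.78 at 72 h. The adjusted p stayed under 0.05 in all 49 fits that left out 1 lung (9.30e-05 to 0.0025). It was 0.0191 on single chips with a random lung block and the chip letter as a term, 0.0589 with hybridization day as a term and 0.149 with chip lot as a term. Of the 17 named genes 0 had an outlying lung among the 4 air lungs at 48 h, the one group large enough for that check.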

How the results depend on the processing

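Of the 10 averaged calls 6 (Kcna3, Kcne4, Kcnj15, Kcnk1, Kcnk3 and Kcnq1) held in every setting tried and without any 1 lung, and of the 13 calls at single times 0 held in every setting. With single chips, the lung as a random block and the chip letter as the replicate block, the counts were 0 higher at 1 h, 3 lower at 8 h, 1 higher at 12, 24 and 72 h, 0 lower at 72 h, 4 for the change with time and 2 among air lungs. Hybridization day as a term gave 0 higher at 1 h, 1 lower at 4 and 8 h, 1 higher at 12 and 24 h, 0 lower at 72 h, 4 lower in the average, 2 for the change with time and 1 among air lungs. Chip lot as a term gave 0 higher at 1 h, 0 lower at 4 h, 2 lower at 8 h, 1 higher at 12 and 24 h, 0 lower at 72 h, 3 lower in the average, 2 for the change with time and 1 among air lungs. Only genes averaging 50 or more gave 0 higher at 1 h, 1 lower at 4 h, 3 lower at 8 h, 0 lower at 72 h and 4 lower in the average, with 20 of the 62 genes tested, which leaves out Kcna3, Kcnk3 and Kcnk5. The mean of all probe sets gave 0 higher at 1 and 4 h, 1 higher at 8 h, 4 lower at 4 h and 3 lower at 8 h. Chips centred on medians and quantile normalization each gave 0 lower at 4 h and 2 lower at 8 h, and an offset of 4 gave 1 lower at 4 h. Only the lungs of a comparison gave 0 higher at 1, 4 and 8 h and 0 lower at 4, 8 and 72 h. Untreated lungs as controls gave 1 higher at 0.5 h, 0 at 1 and 4 h, 1 at 12 and 24 h and 2 at 48 and 72 h, with 0 lower at 4 h and 3 lower at 8 h. With those controls 4 changes turned positive: Kcnab3 (0.21) and Kcnmb1 (0.12) at 4 h, Kcne2 at 8 h (0.026) and Kcnj3 at 12 h (0.11). Without the 5 air lungs there were 0 higher at 48 h, 0 lower at 72 h, where 1 air lung was left and was assumed to vary like the other groups, and 2 for the change with time. With 1 lung left out the counts lay between 0 and 1 higher at 1, 4, 48 and 72 h, 1 and 2 higher at 8 h, 0 and 2 lower at 4 h, 0 and 4 lower at 8 h, 0 and 2 lower at 72 h, 6 and 10 lower in the average, 1 and 2 for the change with time, and 0 and 1 among air lungs. The causes were not tested. Dim signal limits 32 of the 62 genes, and chips of a lung differ by a median SD of 0.30 (log2).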
